A study of Mus musculus with 26 samples.

Results

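*Klf2*, *Klf3*, *S1pr1*, *S1pr4*, *S1pr5*, *Cd69*, *Selplg* and *Gpr183* are 8 genes that govern how lymphocytes enter, move within and leave lymphoid tissue. They were taken by name from the 35865 mouse genes to which the deposited transcripts could be assigned. Their RNA was followed in TCRTg101, CD8+ T cells with 1 transgenic receptor that recognizes a Kb-restricted antigen of C1498, a murine leukemia line. In cells taken from the liver of leukemia-bearing mice at days 13 to 18, against control cells, *S1pr1*, *Klf3* and *Klf2* RNA fell furthest and *S1pr4* fell less. *Selplg* RNA did not pass the test in any comparison unless a library was left out.

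A naive T cell leaves a lymph node or the spleen by following sphingosine 1-phosphate (S1P), which is abundant in blood and lymph and scarce inside the tissue. *S1pr1* encodes the receptor that reads this gradient. *Klf2* encodes a transcription factor that activates *S1pr1* and is itself activated by FOXO1 in resting T cells. The surface protein CD69 binds S1PR1 and takes it off the cell surface, so that recently activated cells are held in the tissue. *Gpr183* encodes EBI2, a receptor for oxysterols that positions lymphocytes inside lymphoid organs, and *Selplg* encodes PSGL-1, the ligand through which leukocytes roll on P-selectin.

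RNA-seq was performed on 14 low-input libraries of TCRTg101 sorted by flow cytometry. The cells came from Rag2-/- mice transgenic for the receptor. For the leukemia-bearing groups they were stained with CellTrace Violet (a dye diluted by each division) and given to hosts, which received C1498 intravenously a day later. The labels list all samples as wild type C57BL/6, 6 weeks old. Control libraries (n = 3) were naive TCRTg101 at day 0 (replicates 1 and 2) and TCRTg101 from untreated, leukemia-free mice at day 18 (replicate 3), all from spleen. The other groups came from leukemia-bearing mice. They were undivided cells with undiluted dye at day 18 (n = 1, labelled spleen, although the study's methods describe such cells sorted from liver for other assays, so its tissue is uncertain), spleen cells at day 7 (spleen early, n = 2) and day 14 (spleen mid, n = 1), and liver cells at day 7 (liver early, n = 2), days 13 and 14 (liver mid, n = 3) and days 16 and 18 (liver late, n = 2). A further day 0 library was primed with oligo-dT and enters no comparison. Tissue and leukemia change together between liver and control libraries and cannot be told apart in those comparisons, and neither can time after transfer for the day 0 controls, which were naive cells. Replicates were separate libraries, and the labels do not say whether they were separate mice, so p-values measure the spread between libraries. All the cells carry 1 receptor.

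The 14 libraries held 22918996 to 71358287 estimated counts. Values are CPM, a gene's counts relative to its library's total, scaled by TMM, a method that corrects for a few abundant genes taking a larger share of a library, unless a sentence says otherwise. Sample titles place control replicate 1, liver mid replicate 1 and liver late replicate 1 in a series TG and the other 11 libraries in a series XC, which was taken as the sequencing batch. All 8 markers fixed for CD8 T cells were present in every library, with *Cd8a* between 506 and 1582 CPM and *Cd3e* between 697 and 1398 CPM.

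The genes lie apart in the genome (GRCm38, GENCODE vM21), with *Klf2* at chr8:72319033-72321656, *Klf3* at chr5:64803388-64832901, *S1pr1* at chr3:115710433-115715072, *S1pr4* at chr10:81497747-81500132, *S1pr5* at chr9:21242912-21248443, *Cd69* at chr6:129267325-129275436, *Selplg* at chr5:113818536-113832644 and *Gpr183* at chr14:121952551-121965195. *Klf2* and *Klf3* are on the plus strand and the other 6 on the minus strand. RefSeq promoter windows of 300 bases (GRCm38.p6, 250 before and 50 after the start site) were available for 5 members. The parts of the *Klf2* and *Klf3* windows upstream of any annotated start are shown because these 2 transcription factors fell together. Capitals mark the letters CTA and TAG separated by any 4 bases, which MEF2 factors recognize, and CCNCNCCC, the C-rich box that KLF factors recognize, on either strand and with overlapping matches joined.

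Klf2, chr8:72318812-72319032, plus strand: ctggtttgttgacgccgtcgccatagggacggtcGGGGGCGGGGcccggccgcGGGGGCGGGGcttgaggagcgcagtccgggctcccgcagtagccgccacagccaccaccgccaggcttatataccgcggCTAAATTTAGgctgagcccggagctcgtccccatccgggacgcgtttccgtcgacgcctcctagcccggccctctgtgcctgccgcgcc

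Klf3, chr5:64803271-64803387, plus strand: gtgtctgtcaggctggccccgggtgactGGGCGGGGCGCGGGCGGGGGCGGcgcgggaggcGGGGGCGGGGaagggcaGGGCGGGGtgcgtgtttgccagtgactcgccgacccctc

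The MEF2 letters stood 118 bases before the RefSeq start of *Klf2* and in no other of the 5 member windows. Of 32817 promoter windows of the same length, 3.69% held them. The KLF box was found 4 times in the *Klf2* window, 10 times in that of *Klf3* (7 in the part shown) and 2 times in that of *S1pr5*, and in 49.5% of all windows. Neither motif was found in the windows of *S1pr4* and *Gpr183*. The letters GTAAACA (FOXO, in 3.65% of all windows), TGANTCA (AP-1, 7.81%) and TGTGGTT (Runx, 5.27%) were in none of the 5. A match describes these letters and is not evidence of binding.

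The comparison of liver mid and late libraries with controls asked which of the genes differed once TCRTg101 were taken from leukemic liver at days 13 to 18. Of the 8 members, all of which passed the filter on low counts, 6 fell, none rose, and *S1pr5* and *Selplg* did not pass (edgeR's quasi-likelihood test, Benjamini-Hochberg adjusted p under 0.05 over 14600 genes). In the same test 47.3% of all genes tested passed, 23.8% falling and 23.5% rising. Counts from other gene lists in this comparison are to be read against these shares. The median log2 fold change was -1.44 over the 8 members and -0.05 over all genes. At the mid time point alone *Klf2*, *Klf3* and *S1pr1* fell, 3 of 8, where 31.3% of all genes passed and 13.9% fell. At the late time point *Klf2*, *Klf3*, *S1pr1* and *Gpr183* fell, 4 of 8, where 37.5% of all genes passed and 17.7% fell. Without the series term *S1pr1* did not pass for mid (adjusted p = 0.0637) and *Gpr183* did not pass for late (adjusted p = 0.372). For 4 members, *Klf2*, *Klf3*, *S1pr1* and *S1pr4*, each of the 5 mid and late liver libraries lay below each of the 3 controls, which held for 18.0% of all genes. The same 4 members were also lower in those 5 libraries than in any of the 7 libraries labelled spleen, the undivided library of uncertain tissue included, which held for 12.0%.

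The count of 6 depended on which libraries were in the fit. Fewer members, and fewer of all genes, passed without liver late replicate 1, which left 1 late library. The fitted log2 changes were then -1.82 for *Klf2*, -2.69 for *Klf3* and -2.80 for *S1pr1*. The count was 3 without control replicate 2 (*Klf2*, *Klf3* and *S1pr1*), when 4735 of 14261 genes passed. It was 0 without control replicate 1, when 6 of 14170 genes passed, and 0 in the XC libraries alone, when 0 of 13295 genes passed and 4540 had an unadjusted p under 0.05. The fitted changes stayed in the same direction there, at -1.70 for *Klf2*, -2.76 for *Klf3*, -2.49 for *S1pr1* and -1.12 for *S1pr4* (log2, XC libraries).

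**Figure D1:**
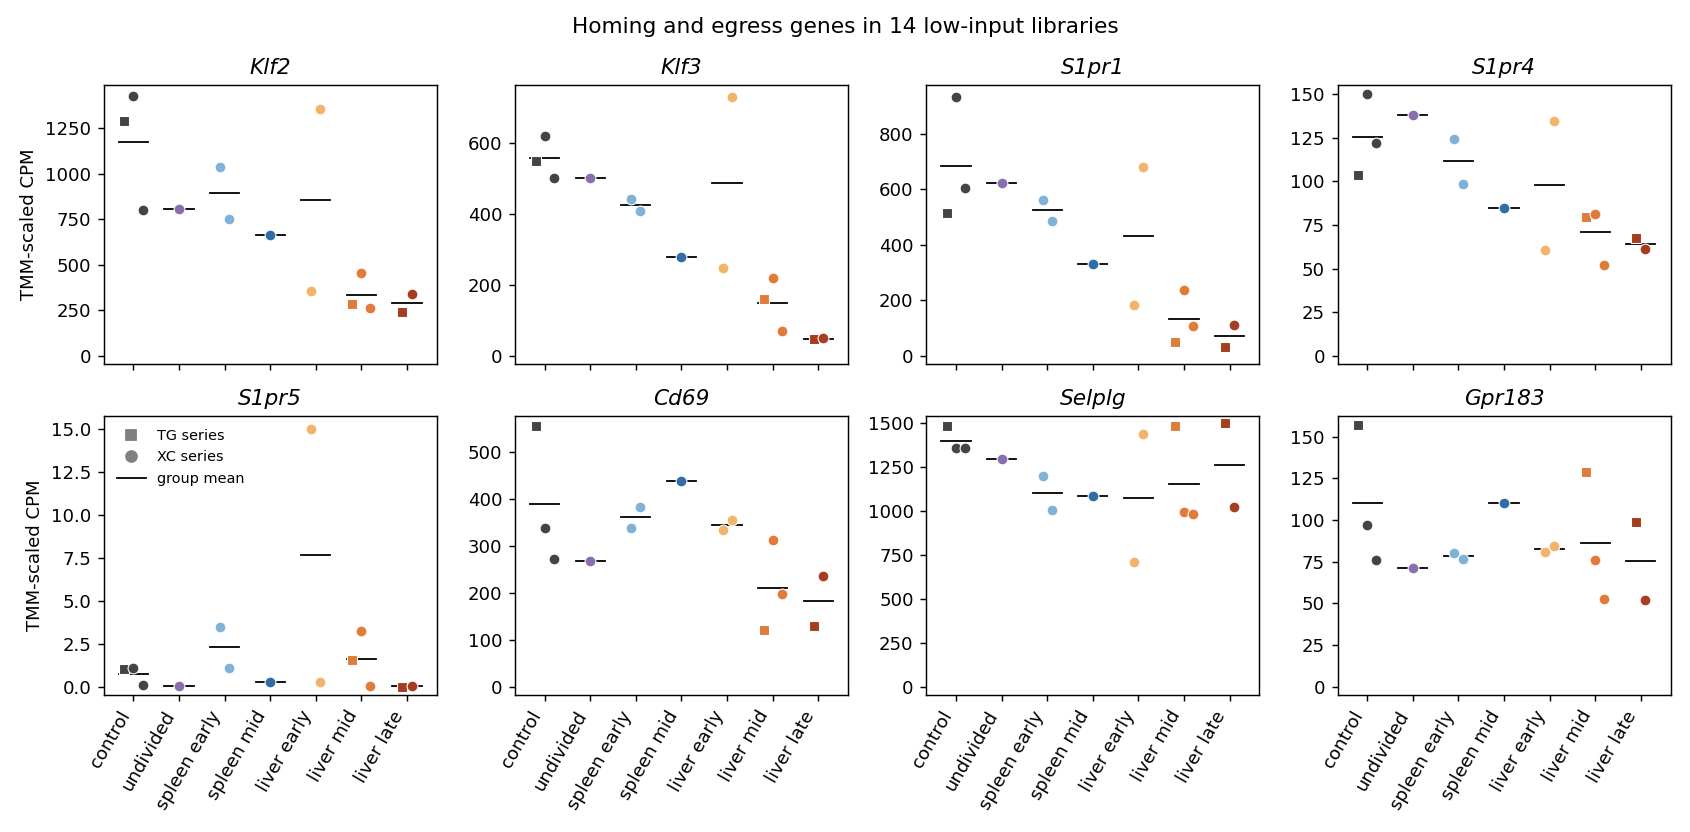
TMM-scaled CPM (linear axis from 0, 1 panel per gene) in each of the 14 low-input libraries by group, with squares for the TG series, circles for the XC series and horizontal lines for group means. *Klf2*, *Klf3*, *S1pr1* and *S1pr4* lie lower in all 5 liver mid and late libraries than in all controls, while *Cd69*, *Selplg* and *Gpr183* overlap and *S1pr5* is at 3.50 CPM or less in all but 1 library.

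*Klf2* RNA stood at 1286, 1427 and 801 CPM in the controls. It stood at 284, 452 and 263 CPM in the liver mid libraries and at 239 and 340.3 CPM in the liver late libraries. Every mid and late library was below every control, and the mean of the 5 (315 CPM ± 84.9 SD, n = 5) was 26.9% of the control mean (1171 ± 328 SD, n = 3). The fitted log2 fold change was -1.94 ± 0.43 (SE, adjusted p = 0.0102). The day 18 control was the lowest of the 3, close to the undivided library at 807 CPM.

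*Klf3* encodes a repressor of the same family that competes for the same DNA boxes. It fell from 549, 621 and 502 CPM in the controls to 162, 219 and 69.2 CPM in liver mid libraries and to 45.9 and 49.7 CPM in liver late libraries. Both late libraries lay below all 3 mid libraries, and *Klf3* was the 1 member for which this held, where it held for 6.86% of all genes. The late mean was 8.57% of the control mean, with a log2 fold change of -3.57 ± 0.63 (SE, adjusted p = 0.0111) for late against control and -1.92 ± 0.50 (adjusted p = 0.0280) for mid against control. Late against mid gave -1.65 ± 0.57, with an unadjusted p of 0.0200 in edgeR's test and an adjusted p of 0.910. The ratio of *Klf2* to *Klf3* CPM was 1.60 to 2.34 in the controls, 1.45 and 1.85 in liver early libraries, 1.76, 2.07 and 3.80 in liver mid libraries and 5.21 and 6.85 in the late libraries. The first 2 mid libraries lay within the control range, and the late libraries lay above every other of these groups.

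*Klf3* reads were spread over 9 transcripts. The main coding transcript held 42.5% of them over the 14 libraries and 3 retained-intron transcripts held 39.2%, between 33.4% and 44.8% in a single library. In the oligo-dT library the main coding transcript held 97.4%. With retained-intron transcripts left out of all genes, an alternative chosen after seeing the data, the fall of *Klf3* in mid and late libraries was -2.81 (adjusted p = 0.00678), where it had been -2.74 ± 0.44 (adjusted p = 0.00627).

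*S1pr1*, the egress receptor, was at 516, 931 and 604 CPM in the controls. It was at 48.1, 237 and 107 CPM in liver mid and at 32.3 and 112 CPM in liver late libraries. All 5 were below the lowest control, and the lowest value of the mid and of the late group was that of the TG library. The mean of the 5 was 15.7% of the control mean, with a log2 fold change of -2.97 ± 0.50 (SE, adjusted p = 0.00655). This was the largest fall among the members in the main fit, though *Klf3* (-2.74 ± 0.44) lay within the error. The order of these genes turned in the XC libraries alone (-2.49 for *S1pr1* and -2.76 for *Klf3*). It also turned for late against control (-3.31 and -3.57). Liver late libraries had 72.2 CPM on average and liver mid libraries 131, a difference that did not pass (log2 fold change -0.68 ± 0.62 SE, adjusted p = 0.944 in edgeR's test).

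*S1pr4*, a second S1P receptor of lymphocytes, fell less. It was at 104, 150.4 and 122 CPM in the controls and at 79.7, 81.3, 51.9, 67.3 and 61.0 CPM in the 5 mid and late libraries. The groups did not overlap, and the mean fell to 54.5% of the control mean (log2 fold change -0.91 ± 0.28 SE, adjusted p = 0.0272). In the mid and the late comparison taken singly *S1pr4* did not pass, with adjusted p of 0.0696 and 0.0600. Leaving out 1 library at a time gave adjusted p of 0.0372 to 0.113 for the 5 libraries together, and the call was kept in 2 of 8 cases, without liver mid replicate 1 or 2.

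*S1pr5*, the receptor that natural killer cells use for egress, was close to absent. It held 68, 56 and 3 estimated counts in the controls, 2.0 in the undivided library, 125.0 and 29.6 in spleen early and 11.5 in spleen mid. In liver mid libraries it held 89.5, 90.0 and 1.0 counts, and in liver late libraries 0.0 and 2.0. The library that stood apart was liver early replicate 1 with 602.0 counts, 15.0 CPM against 0.31 CPM in replicate 2 of that group and at most 3.50 CPM in any other library. The natural killer markers *Ncr1* and *Klra8* were at 0 and 0.149 CPM in that library, *Klrb1c* was at 8.97 CPM, its highest value in the series, and *Eomes*, which activated CD8 T cells also express, was at 122 CPM. *S1pr5* did not pass in any comparison with the filter on low counts, and no fold is given for late libraries at these counts. In the edgeR fit without that filter it passed in 4 comparisons, liver late against control (adjusted p = 5.44e-07), liver mid and late against control (0.00493), liver early against control (6.03e-06) and liver late against mid (1.28e-08).

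Of the other genes fixed for S1P receptors and signalling, *S1pr2* (the inhibitory S1P receptor) did not pass and *S1pr3* was left out by the filter. Of 13 tested members of that list, 1 rose and 3 fell, with a median log2 fold change of -0.00 against -0.05 over all genes. The riser was *Rgs16*, a regulator that ends G protein signals, from a mean of 0.28 CPM in controls to 161 CPM in mid and late libraries (log2 fold change 9.28 ± 1.46 SE, adjusted p = 0.00638). Besides *S1pr1* and *S1pr4*, *Arhgef1*, a guanine nucleotide exchange factor that such receptors signal through, fell by 0.74 (± 0.19 SE, adjusted p = 0.0143). *Rgs1* had 47.1 CPM in controls and 112 CPM in mid and late libraries and did not pass (adjusted p = 0.261). Among 10 tested genes of S1P synthesis and turnover, 1 rose and 3 fell. *Sgpp1*, an S1P phosphatase, fell by 0.91 (± 0.22 SE, adjusted p = 0.0116), and *Sphk1*, *Sphk2* and the lyase gene *Sgpl1* did not pass. *Mfsd2b* and *Sgpp2* fell and *Plpp2* rose, all from means under 4 CPM in controls.

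**Figure D2:**
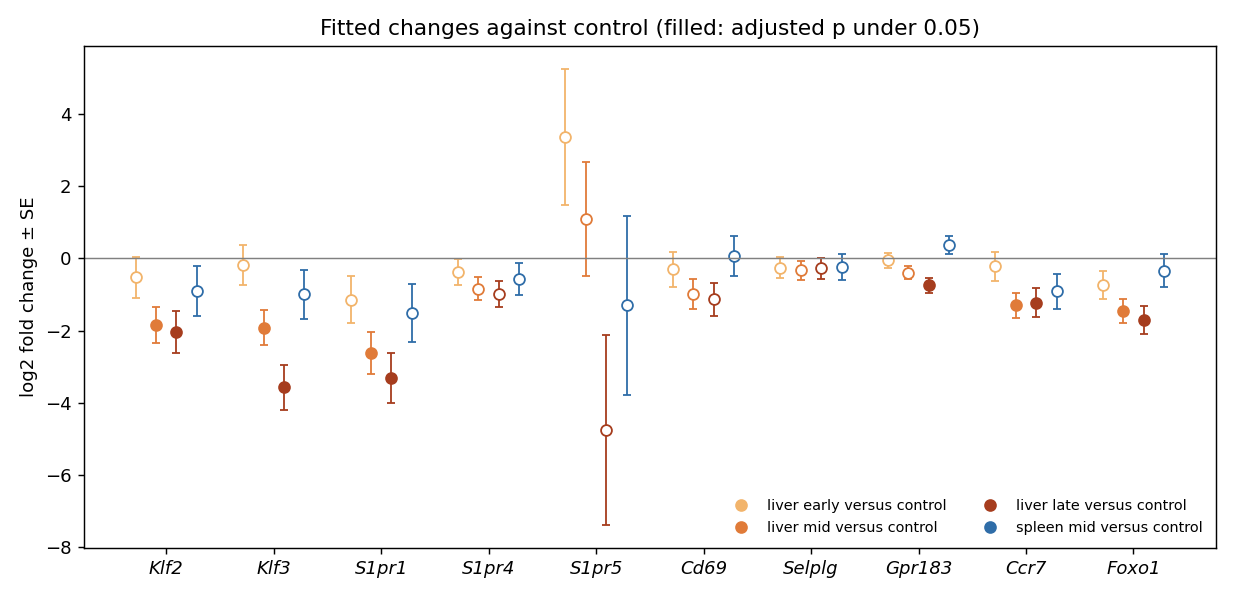
Fitted log2 fold change against control with its standard error for the 8 members and for *Ccr7* and *Foxo1* in 4 comparisons, filled where the adjusted p was under 0.05. Filled points occur only for liver mid and liver late, and the wide bars of *S1pr5* come from counts near 0.

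*Cd69* RNA had a lower mean in the liver libraries, with overlap. It stood at 555, 339 and 272 CPM in the controls. It stood at 122, 313 and 198 CPM in liver mid libraries and at 131 and 237 CPM in liver late libraries, so that the mid libraries overlapped the controls. The mean of the 5 was 51.5% of the control mean (389 CPM ± 148 SD, n = 3), with a log2 fold change of -1.05 ± 0.36 (SE, adjusted p = 0.0416). This fall belonged mostly to the TG series. The mean log2 difference was -2.13 within TG (2 libraries against 1) and -0.31 within XC (3 against 2), where the ranges overlapped. The call was lost in 5 of the 8 fits that left out 1 library. The log2 fold change over the 8 ran from -1.38 to -0.32, the latter without control replicate 1, and the call was also lost without the series term (adjusted p = 0.0645), with the early liver libraries left out of the fit (adjusted p = 0.0592) and with retained-intron transcripts left out (-0.93, adjusted p = 0.106).

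Retained-intron transcripts held 31.4% of *Cd69* reads over the 14 libraries, and the share differed among controls. It was 24.6% and 22.2% in the day 0 controls, 51.6% in the day 18 control and 49.3% in the undivided library, against 19.9% and 13.2% in the late liver libraries and 6.4% in the oligo-dT library. Without those transcripts *Cd69* stood at 467, 290.1 and 146 CPM in the controls and at 107, 233, 143, 110.3 and 218 CPM in the mid and late libraries. On that scale the day 18 control lay inside the range of the liver libraries.

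Because CD69 removes S1PR1 protein from the surface, the 2 RNAs were also read against each other. The ratio of *Cd69* to *S1pr1* CPM was 1.08, 0.364 and 0.451 in the controls and 0.433 in the undivided library. It was 2.53, 1.32 and 1.86 in liver mid libraries and 4.05 and 2.11 in liver late libraries, all above the highest control. The mean ratio on the log2 scale was 1.98 higher, or 3.94-fold, in the 5 mid and late libraries (exact two-sided permutation test over 56 arrangements, p = 0.0357, the smallest p this design allows). The arrangements did not keep the series apart, and the TG control had the highest control ratio. The mean of *S1pr1* was lower by more than that of *Cd69*, whose values overlapped between the groups. The ratio was 0.603 and 0.788 in spleen early, 1.33 in spleen mid, and 1.85 and 0.522 in the 2 liver early libraries.

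**Figure D3:**
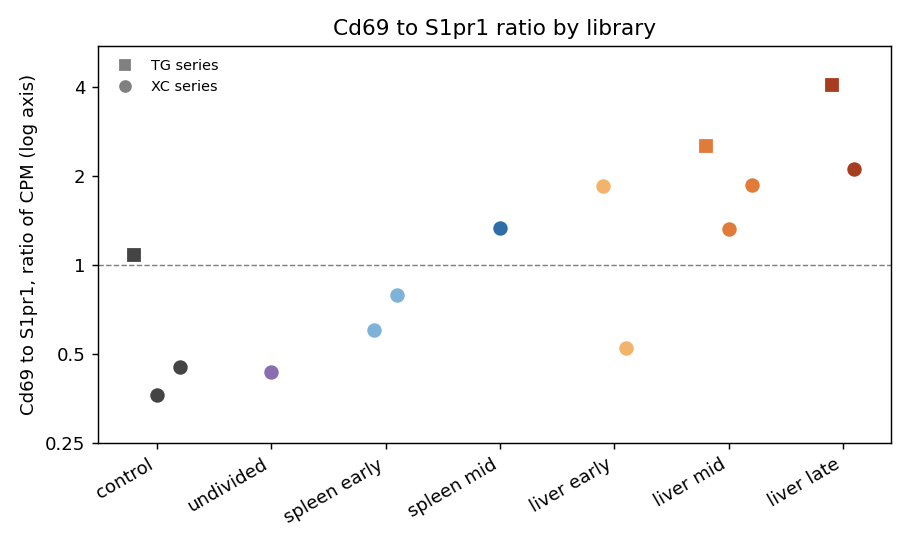
Ratio of *Cd69* to *S1pr1* CPM per library on a log2 axis, with squares for the TG series and circles for XC and a dashed line at equal CPM. The 5 liver mid and late libraries lie between 1.32 and 4.05, above all 3 controls.

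*Gpr183* showed a small difference. It was at 157, 97.2 and 76.1 CPM in the controls, at 129, 76.1 and 52.8 CPM in liver mid and at 98.6 and 52.0 CPM in liver late libraries. The pooled groups overlapped, and within each series the liver libraries were lower, by 0.47 on the log2 scale in TG and 0.53 in XC, where the highest liver and the lowest control value were nearly equal. With the series in the model the log2 fold change was -0.57 ± 0.16 (SE, adjusted p = 0.0215), and -0.74 ± 0.21 (adjusted p = 0.0271) for the late libraries alone. Without the series term and without each of 4 of the 8 libraries in turn, the call for mid and late together was lost. Its ligand enzymes *Ch25h* and *Cyp7b1* did not reach the count filter in these cells.

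*Selplg* was abundant throughout. It was at 1483, 1356 and 1353 CPM in the controls and at 1480, 992, 980, 1497 and 1019 CPM in the 5 mid and late libraries. The pair of TG liver libraries matched the TG control, while the 3 XC liver libraries all lay below the 2 XC controls (mean log2 difference 0.01 within TG and -0.44 within XC, not tested within series). The fitted difference was -0.30 ± 0.23 (SE, adjusted p = 0.301). On the deposited TPM scale, which is not corrected by TMM, *Selplg* was lower in all 5 libraries, at 448 to 590 TPM against 689 to 890 in the controls (means 540.5 and 791). The mean was lower on both scales, and whether the groups overlapped depended on the scaling. Of 12 tested genes for selectin ligands (*Selplg*, *Cd44* and *Spn* among them) and their glycosylation, 5 rose and 2 fell, where 23.5% of all genes rose and 23.8% fell. *Fut7*, the fucosyltransferase of selectin ligands, rose from 2.94 to 8.69 CPM (log2 fold change 1.57 ± 0.36 SE, adjusted p = 0.0105). *St3gal4* rose by 1.03 (adjusted p = 0.00838), *Tpst1* by 0.95 (adjusted p = 0.0442), *Spn*, which encodes CD43, by 0.66 (adjusted p = 0.0326), and *Cd44*, a second selectin ligand and activation marker, by 2.83 (adjusted p = 0.0408). The fallers were *B4galt1*, a galactosyltransferase, from 177 to 98.7 CPM (log2 fold change -0.90, adjusted p = 0.00836), and *Tpst2*, which sulfates tyrosines as *Tpst1* does, from 307.5 to 233.5 CPM (log2 fold change -0.60, adjusted p = 0.0461). *Gcnt1* stood at 1.20 CPM in controls and 7.21 in mid and late libraries and did not pass (adjusted p = 0.0620).

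The 2 liver early libraries, of the same day, tissue and series, went different ways. *Klf2* was at 357 CPM in replicate 1 and 1353 in replicate 2. *S1pr1* was at 181 and 681 CPM, *Klf3* at 247 and 730, and *S1pr4* at 60.9 and 135. Replicate 1 thus lay among or near the mid libraries and replicate 2 within or above the control range for these 4 genes. *Selplg* split in the same way, at 710 CPM in replicate 1, the lowest value in the series, and 1435 in replicate 2. *Cd69* (335 and 356 CPM) and *Gpr183* (80.7 and 84.7 CPM) were alike in both. Other genes differed between the same 2 libraries. *Il2ra* was at 112 CPM in replicate 1 and 3.01 in replicate 2, *Nr4a1* at 908 and 60.55, *Xcl1* at 1775 and 22.2, *Fos* at 276 and 1091, and *Jun* at 386 and 1605. The 8 CD8 T cell markers summed to 3940 CPM in replicate 1, the lowest sum of the 14 libraries, and to 6022 in replicate 2. The part of these differences in the members' values was not tested.

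No member passed for liver early against control, where 0 of 14600 genes (0%) passed in edgeR, 1493 had an unadjusted p under 0.05, and DESeq2 called 350 genes with no member among them. With replicate 2 left out *Klf2* and *Selplg* passed among 1902 of 14363 genes, the lone remaining library being assumed to vary like the other groups. Against spleen early libraries of the same day, 0 of 15449 genes passed (0%; 1391 at an unadjusted p under 0.05, 59 in DESeq2), again with no member, and the largest difference among well-detected members was -0.29 ± 0.62 for *S1pr1*.

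For *Klf2*, *Klf3*, *S1pr1* and *S1pr4*, day 7 spleen libraries lay nearer to the control mean than to the liver mid and late mean on the log2 scale. At day 14 this held for *Klf2*, *Klf3* and *S1pr1*. *S1pr4* then lay 0.54 below the control mean and 0.33 above the liver mean. At day 7 *S1pr1* was at 563 and 486 CPM, *Klf2* at 1038 and 753, *Klf3* at 442 and 409, and *S1pr4* at 125 and 98.8. At day 14 the single spleen library had 331 CPM of *S1pr1*, 662 of *Klf2*, 279 of *Klf3* and 85.0 of *S1pr4*. None of these genes passed against controls at either day, or in liver mid against spleen mid. Spleen early against control gave 0 of 15449 genes (0%; 970 at an unadjusted p under 0.05, 14 in DESeq2). Spleen mid against control and liver mid against spleen mid each gave 1 gene, or 0.00647%, no member among them. The log2 fold change of *S1pr1* was -1.51 ± 0.81 for spleen mid against control and -1.09 ± 0.69 for liver mid against spleen mid, so with 1 spleen library neither step could be resolved from its error. *Cd69* was at 439 CPM in the day 14 spleen library, above 2 of the 3 controls, and *Gpr183* at 110.4 CPM.

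Undivided TCRTg101 from leukemia-bearing mice at day 18 had control-like values, which describe a single library. Tests with this library took their spread from the other groups, so a lack of calls does not show likeness. The library had 807 CPM of *Klf2*, 502 of *Klf3*, 621 of *S1pr1*, 138 of *S1pr4*, 269 of *Cd69*, 1295 of *Selplg* and 71.2 of *Gpr183*. It resembled the day 18 control (801, 502, 604, 122, 272, 1353 and 76.1 CPM in the same order). Undivided against control gave 0 of 14600 genes in edgeR and in DESeq2 (0%; 182 and 351 at an unadjusted p under 0.05). Late liver libraries against the undivided library differed by -3.41 ± 0.73 for *Klf3*, -2.69 ± 0.81 for *S1pr1* and -1.42 ± 0.72 for *Klf2* (log2 ± SE), with adjusted p of 0.102, 0.123 and 0.246 in edgeR, where 0 of 14600 genes (0%) passed and 3782 had an unadjusted p under 0.05. DESeq2 called 1877 genes in this comparison, *Klf3* and *S1pr1* among them. Late against mid liver libraries gave no member and 0 genes in edgeR (0%; 780 at an unadjusted p under 0.05, 32 in DESeq2).

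Of 17 tested KLF factors and upstream regulators, 11 fell and 1 rose, with a median log2 fold change of -1.08, where 23.8% of all genes fell. The 11 include *Klf2* and *Klf3* themselves and 5 regulators. Of the 8 other KLF genes, 4 fell, 1 rose, and *Klf4*, *Klf9* and *Klf16* did not pass. *Klf6* fell from 1036 to 202 CPM (log2 fold change -2.34 ± 0.56 SE, adjusted p = 0.0135), *Klf7* by 1.93 (adjusted p = 0.00515), *Klf13* by 1.21 (adjusted p = 0.00842) and *Klf12* by 1.08 (adjusted p = 0.0169). The control mean of *Klf6* was carried by the day 0 controls (1708 and 996 CPM). The day 18 control had 404 CPM, and the mid and late libraries had 130 to 292 CPM. *Klf10* rose by 1.02 (± 0.25 SE, adjusted p = 0.0127). *Foxo1* was at 385, 522 and 384 CPM in the controls and at 115, 200.3, 175, 104 and 153 CPM in the 5 mid and late libraries, with no overlap (log2 fold change -1.58 ± 0.29 SE, adjusted p = 0.00671). Of the ERK5 route to *Klf2*, *Mapk7* (ERK5 itself) fell by 0.74 (± 0.16 SE, adjusted p = 0.00838), *Mef2d* by 0.73 (adjusted p = 0.0153) and *Mef2a* by 0.65 (adjusted p = 0.0139), while *Map2k5*, its upstream kinase, was at 49.1 and 51.1 CPM (adjusted p = 0.894). *Mef2c* fell by 3.17 from 1.68 CPM, a mean carried by the day 0 controls (2.81 and 2.03 CPM). The day 18 control, at 0.195 CPM, lay inside the range of the mid and late libraries (0.0725 to 0.365 CPM).

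**Figure D4:**
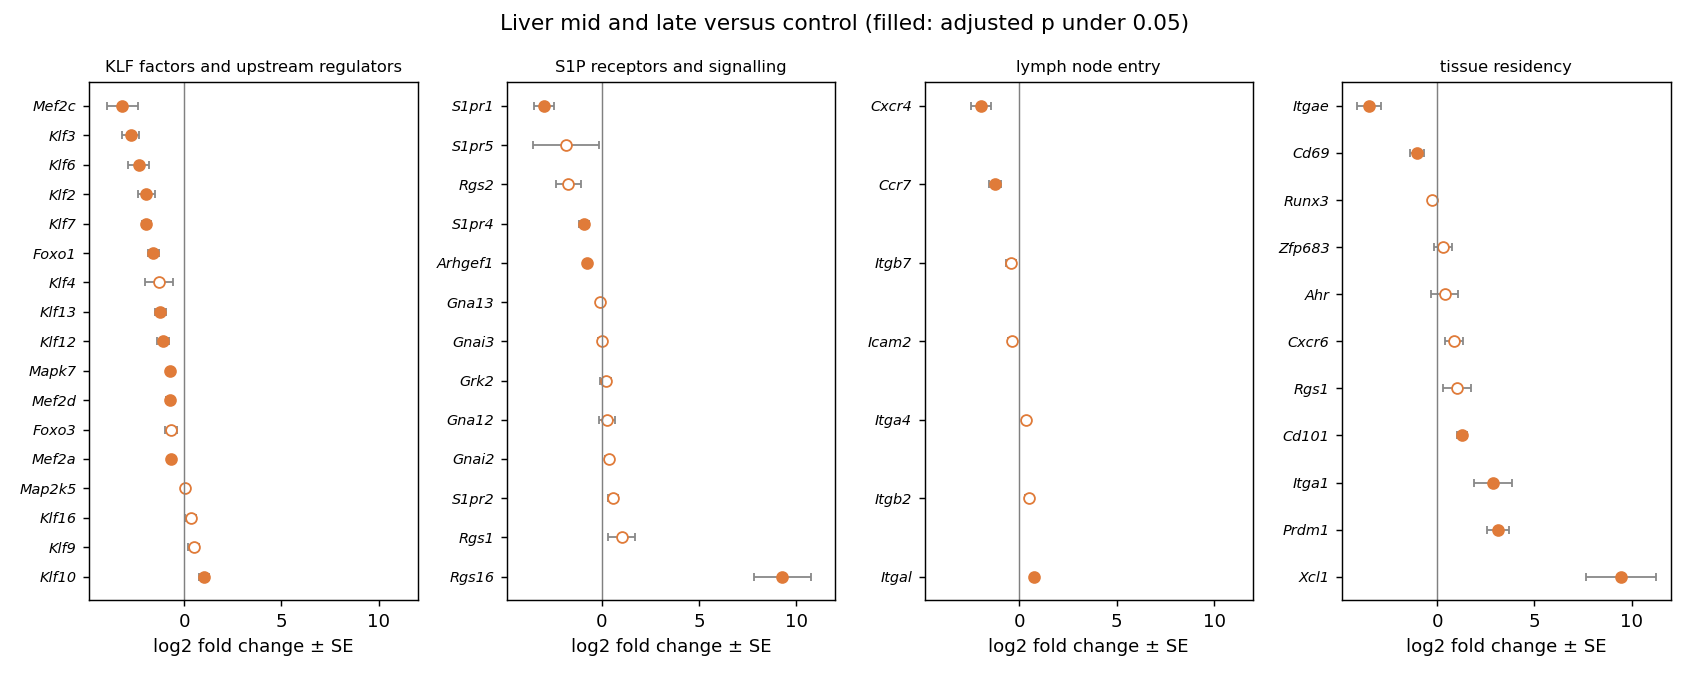
Log2 fold change with its standard error for liver mid and late against control, for every tested gene of 4 lists, filled where the adjusted p was under 0.05. KLF factors and their regulators lie mostly left of 0, while the other 3 lists hold genes on both sides.

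Of 7 tested genes for lymph node entry, 2 fell and 1 rose, to be read against the 23.8% of all genes that fell and the 23.5% that rose. *Ccr7*, the receptor that guides cells into lymph nodes, fell from a mean of 1232 to 521 CPM (log2 fold change -1.26 ± 0.30, adjusted p = 0.0114), and *Cxcr4* from 52.1 to 13.4 CPM (adjusted p = 0.0191). *Itgal*, the integrin chain of LFA-1, rose by 0.75 (adjusted p = 0.00993). Of 7 tested genes for oxysterol and chemoattractant positioning, 3 rose and 1 (*Gpr183*) fell, and the risers were *Cx3cr1* (by 4.23, adjusted p = 0.0192), *Cxcr3* (by 3.79, adjusted p = 0.0104, from 12.1 to 183 CPM) and *Cxcr5* (by 1.94, adjusted p = 0.0253).

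Of 11 tested genes linked to tissue residency, 4 rose and 2 fell, where 47.3% of all genes passed. The fallers were *Cd69* and *Itgae*. *Itgae*, the integrin chain CD103, went from 162 to 17.0 CPM (log2 fold change -3.50 ± 0.61 SE, adjusted p = 0.00700). *Xcl1* rose from 1.32 to 1273 CPM (adjusted p = 0.00791), *Prdm1* by 3.13 (adjusted p = 0.00644), *Itga1* by 2.87 (adjusted p = 0.0421) and *Cd101* by 1.27 (adjusted p = 0.00715). *Zfp683*, *Runx3* and *Cxcr6* did not pass. Of 12 tested genes that follow T cell receptor signalling, 10 rose and none fell, among them *Il2ra* (by 6.51, adjusted p = 0.00756), *Tnfrsf9* (by 6.13, adjusted p = 0.0105), *Irf4* (by 5.64, adjusted p = 0.00887) and *Nr4a2* (by 4.32, adjusted p = 0.00898), with *Nr4a1* (means of 89.9 and 372 CPM) and *Myc* not passing.

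Part of the genes fixed for stress and dissociation moved with the members. Of 14 tested, 8 fell and 1 rose between controls and liver mid and late libraries, with a median log2 fold change of -1.37. *Fos* was at 1515, 675 and 1098 CPM in the controls and at 28.8, 198, 97.5, 19.1 and 200.4 CPM in the 5 libraries (log2 fold change -3.92 ± 0.90 SE, adjusted p = 0.0124). *Jun* fell by 3.15 (adjusted p = 0.0139), *Dusp1* by 2.71 (adjusted p = 0.0356) and *Fosb* by 2.09 (adjusted p = 0.0237), and *Hsp90aa1* rose by 0.76 (adjusted p = 0.0100). Liver early replicate 2 held 1091, 1605 and 498 CPM of *Fos*, *Jun* and *Dusp1*, and replicate 1 held 276, 386 and 222 CPM. The heat-shock genes *Hspa1a* and *Hspa1b* of the same list were above all controls in both. They were at 976 and 2015 CPM in replicate 1 and at 2199 and 4520 CPM in replicate 2. The highest controls had 430 and 1065 CPM. *Fos*, *Jun* and *Dusp1* were lowest in the 2 TG liver libraries, as were *Cd69* and *S1pr1*. *Klf2*, *Klf6* and *Cd69* are themselves known to respond to cell handling, and spleen and liver were prepared differently, the liver over Ficoll. The part of handling in these results was not tested.

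**Figure D5:**
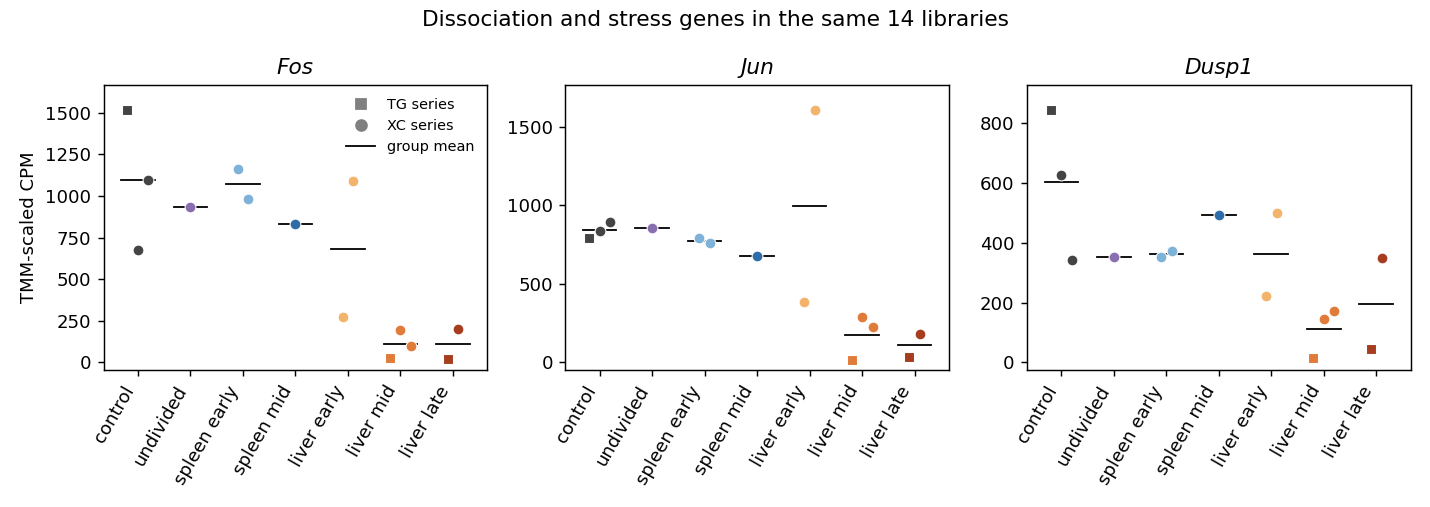
TMM-scaled CPM of *Fos*, *Jun* and *Dusp1* by library (linear axis from 0), with squares for the TG series, circles for the XC series and horizontal lines for group means. Libraries labelled spleen, with or without leukemia, hold *Fos* at 675 CPM or more, and the 5 liver mid and late libraries hold it at 200.4 CPM or less. The 2 liver early libraries differ, with 276 CPM in replicate 1 and 1091 in replicate 2, which lies within the range of the libraries labelled spleen.

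Markers of other cells also differed between the groups. The 5 erythroid genes summed to 5213 and 20330 CPM in the day 0 controls, 136 in the day 18 control and 5.58 to 215 in liver mid and late libraries, with *Hba-a2* or *Hbb-bs* the most abundant. The 8 myeloid genes summed to 630, 122 and 11.7 CPM in the controls and 12.2 to 51.3 in those liver libraries. Hepatocyte genes (6 with a value, *Alb* the highest) summed to 148, 15.7, 1.90, 247 and 50.3 CPM in the mid and late libraries and to at most 0.23 CPM in controls. Of the B cell genes, *Cd79b* was the most abundant in every library, and *Ms4a1* reached 6.10 CPM in spleen early replicate 2. *Foxp3* was at 2.98 CPM or less. The part of these cells in the results was not tested. In bulk libraries fewer cells that express a gene and less RNA per cell cannot be told apart.

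Levels can be compared between the genes only per length. By TPM, which divides by transcript length, the control order was *Selplg* (791 ± 101, SD, n = 3), *Klf2* (693 ± 180), *Klf3* (311 ± 70.9), *S1pr1* (214 ± 77.8), *Cd69* (187 ± 56.5), *S1pr4* (51.2 ± 15.5), *Gpr183* (37.7 ± 8.72) and *S1pr5* (0.283 ± 0.214). *Selplg* and *Klf2*, *Klf3* and *S1pr1*, *S1pr1* and *Cd69*, and *S1pr4* and *Gpr183* were neighbours that overlapped within their SD. In the late libraries *Selplg* (496 TPM ± 67.5, n = 2) stayed highest. *Klf2* was at 138 ± 86.4 and *Cd69* at 87.4 ± 69.5, and *Klf3* (22.9), *S1pr1* (19.2), *S1pr4* (19.1) and *Gpr183* (17.9) lay close together.

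The genes whose pattern over the 14 libraries was most like each member were found by the mean absolute difference of centred log2 CPM, among 9024 genes with a mean log2 CPM of at least 3. *Usp28* lay 0.146 from *S1pr1*, followed by *Sh3bp5* (0.198) and *Arhgef11* (0.208), small against the mean deviation of *S1pr1* itself (1.26). *4930523C07Rik* (0.203), *Rtn4rl1* (0.205) and *Zbtb20* (0.205) were nearest to *Klf2*, and *Hid1* (0.233), *Acss2* (0.237) and *Mylip* (0.240) to *Klf3*. *Setd1b* (0.121), *Klf13* (0.142) and *Pced1b* (0.144) were nearest to *S1pr4*. For *Cd69* they were *Pgap1* (0.195), *Scai* (0.203) and *Mef2a* (0.209), for *Selplg* *Sirt7* (0.0957), *Twf2* (0.0965) and *Gimap9* (0.105), and for *Gpr183* *Zfp326* (0.154), *Gtpbp6* (0.175) and *Tex264* (0.179). For *S1pr5* the nearest was *Nr4a1* at 1.61, close to the gene's own mean deviation of 2.03, so no gene followed it. Libraries share their depth and series, and these distances are a description without a test.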

How the data were processed

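TCRTg101 RNA from 14 low-input libraries and 1 oligo-dT library (26 runs) was used. The authors sequenced it on a HiSeq 2500 and quantified transcripts with kallisto (versions are not given in the sources used here; the submitters' notes name mm10 and GRCm38). The authors deposited kallisto's estimated counts and TPM per transcript. Here the estimated counts were added up per gene with GENCODE vM21 (98.2% of transcripts assigned), and over runs, and rounded. Runs whose titles differ only by an added -2 were taken as repeat runs of 1 library, which the labels do not state and on which every n depends. This gave 11 libraries of 2 runs and 4 of 1 run (liver early replicate 2, liver mid replicates 2 and 3, and oligo-dT). Genes were kept when 6 or more libraries held 10 or more counts, and were tested with edgeR 4.0.16 (quasi-likelihood, robust, TMM, R 4.3.3) with group and series as terms, in 11 libraries or, for spleen comparisons, 14. P-values were Benjamini-Hochberg adjusted with a threshold of 0.05, and errors of fold changes were taken from the F statistic. Apart from *S1pr5*, members held at least 1419.5 estimated counts in each low-input library, so precision is limited by the 1 to 3 libraries per group. The procedure was also run on simulated counts with the same spread for every gene and no series effect. Those settings differ from the data, so that run does not measure its accuracy here. DESeq2 1.42.0 and the other alternatives are given in the closing section. Python 3.11.15 with scipy 1.17.1 gave the permutation test, which was the only such test made. Deposited TPM, summed per gene, served to compare levels between genes.

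The members were taken by name, with no threshold on a measured value, and the members and gene lists were proposed with earlier results of these data known. Named were the 8 members, *Ccr7*, *Foxo1*, up to 4 genes per list with the largest change among those that passed in liver mid and late against control, and the 3 genes nearest in pattern to each member. Other list genes in the text were chosen after their values were seen, as were the promoter motifs and the alternatives without early liver libraries or retained-intron transcripts. Of 3 genes for CD4 T cells 2 rose (*Cd40lg* and *Foxp3*), of 8 for CD8 T cells 1 rose (*Cd3e*), of 4 tested for B cells 2 fell, of 2 tested for natural killer cells 1 rose (*Eomes*), of 6 tested for myeloid cells 4 fell, both tested for hepatocytes rose, of 2 tested for endothelium 1 fell, and all 5 for red cells fell. Some genes of these lists are not reported here and enter no count of a list.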

Additional observations from a re-analysis of the deposited data

Results flagged for a closer look

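*S1pr4* stood apart in the library made with oligo-dT priming from naive day 0 cells, which entered no comparison. It was at 173.3 CPM there (not scaled by TMM), above the 3 low-input controls, which ranged from 107 to 156 CPM on the same scale, and 1.63 times the matching low-input control. The other members lay below or within the control range in that library, with *S1pr1* at 266 CPM against 531 to 964, *Selplg* at 757 against 1403 to 1525 and *Gpr183* at 65.3 against 83.6 to 162. It is 1 library, and the difference was not tested.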

How the results depend on the processing

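Counts of members that passed depended on the libraries used. For liver mid and late against control (6 of 8), the count was 0 to 6 when 1 library was left out and 0 in the XC series alone. For liver mid (3 of 8) it was 0 to 3 and 0, with 0 without control replicate 1, control replicate 2, liver mid replicate 1 or liver mid replicate 3. For liver late (4 of 8) it was 0 to 4 and 0, with 0 without control replicate 1 or either late library, and 2 without control replicate 2. Leaving out a library or a series also leaves fewer degrees of freedom. Without the filter on low counts, which raised the genes tested to 29482 (32768 in spleen comparisons), the counts were 5 for mid, 7 for late, 2 for late against mid, 4 for late against undivided, 2 for liver early against control and 1 for spleen mid against control, *S1pr5* being among those for late, late against mid and liver early. For mid and late together the count without the filter was 7, *S1pr5* again included. Over all genes, the fit without the filter called 5708 for mid, 6274 for late and 7657 for mid and late. It called 434 for late against mid and 1480 for liver early, where the main fit called 0. Over all genes it also called more than the main fit for late against undivided and for spleen mid. The cause of these changes was not tested. For liver early against control the count was 0 to 2 when 1 library was left out, with 2 without liver early replicate 2. For late against undivided it was 2 with DESeq2 and 3 with the early liver libraries left out of the fit. Both of these fits also called more genes over all genes than the main fit. Leaving out the series term left 2 members for mid (*S1pr1* lost), 3 for late (*Gpr183* lost) and 4 for mid and late (*Cd69* and *Gpr183* lost). Over all genes, it lowered the calls to 1385 for mid, 2693 for late and 4238 for mid and late, and day 0 controls alone gave 2355 for mid. The ratio of *Cd69* to *S1pr1* was 1.82 higher (log2) against the day 0 controls alone and 1.67 to 2.45 when 1 library was left out, with an exact permutation p of 0.0571 or 0.0952, the smallest p those designs allow. Of 1130 values of single members under the alternatives, 1037 stayed on their side of the threshold, 66 lost a call and 27 gained one. Of all these, 41 turned sign, each for a result that passed neither before nor after. No paired analysis was possible because replicate numbers were given in accession order and do not pair libraries.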
